A study of Homo sapiens with 8 samples.

Results

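Polyamine metabolism was followed in PANC-1 cells through 10 genes, namely ODC1, AMD1, SRM and SMS for synthesis, OAZ1, OAZ2 and AZIN1 for the control of ornithine decarboxylase, and SAT1, SMOX and PAOX for acetylation and oxidation. The genes were selected by symbol from the 20263 genes of the deposited table, and all 10 were found there. They were put forward when results of EB against DMSO in these libraries were already known, among them the higher SAT1 level, so their values in this comparison are given as a description, without p-values, and calls of the fitted model are counted only beside the share over all genes. PANC-1, an established line of human origin, derives from pancreatic ductal carcinoma. Cells received 10 μM eupalinolide B (EB), a sesquiterpene lactone of *Eupatorium lindleyanum*, or the vehicle dimethyl sulfoxide (DMSO) for 24 h, and mRNA was sequenced in 4 samples per group. A single cell line at a single dose and time was measured. The study's methods call the 4 samples biological replicates.

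Levels are given as TPM (transcripts scaled to a fixed sum per library), which take transcript length into account. Levels of different genes can thus be set side by side within a library. A dependence of the fold changes on length remained, as given below. The table holds no read counts and the sequencing depth is unknown here. All 10 genes were among the 11725 that reached 1 TPM in 4 or more libraries, on which limma was fitted to log2(TPM + 1). Differences are given as log2 fold changes, EB minus DMSO, on that scale. The 13 mitochondrially encoded genes took 17.0% to 39.0% of the TPM with DMSO and 11.6% to 20.3% with EB, and the highest share was that of DMSO replicate 4. This library had the lowest DMSO value of all 10 polyamine genes, as it did for 77.0% of all genes tested. Of the duct and epithelial markers, KRT8, KRT18 and KRT19 were present, whereas KRT7, EPCAM and CDH1 stayed below 1 TPM in every library. The mean TPM of KRT8, KRT18 and KRT19 was 755.1, 399.3 and 163.4 with DMSO and 1709.6, 1119.4 and 568.6 with EB (n = 4). The mesenchymal marker VIM was present at 6161.7 TPM with DMSO and 7108.1 with EB (means, n = 4). Of 17 markers of acinar, endocrine, immune and endothelial cells, 10 were at 0 in all libraries, and only CD14 exceeded 1 TPM. In RNA from whole cultures, fewer expressing cells and less RNA per cell cannot be told apart.

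Polyamines are small, positively charged amines that bind nucleic acids and are needed for growth. Ornithine decarboxylase, encoded by ODC1, makes putrescine from ornithine, and spermidine and spermine follow by transfer of aminopropyl groups that AMD1 prepares from S-adenosylmethionine (SAM). Antizymes bind ornithine decarboxylase and send it to the proteasome, and the antizyme inhibitor AZIN1 binds antizymes in its place. Spermidine/spermine acetyltransferase, encoded by SAT1, opens the catabolic route and is known to be induced by polyamines and by many stresses. Growing tumor cells are known for high polyamine synthesis.

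Part of the control of this pathway is written into the transcripts. Polyamines promote a shift of the reading frame during translation of antizyme mRNA, and the short reading frame at the start of the AMD1 mRNA lets polyamines hold back its translation. The sequences below show these elements, since the RNA levels reported further on do not measure them. In OAZ1 and OAZ2 the capitals mark the last codon of the first frame and the stop codon behind it, whose first base is skipped in the annotation. In AMD1 they mark the start and the stop codon. The OAZ1 stretch lies at chr19:2271425-2271472 on the plus strand of hg38, the OAZ2 stretch at chr15:64691486-64691533 on the minus strand, and the AMD1 stretch at chr6:110874796-110874816 in exon 1 on the plus strand.
OAZ1: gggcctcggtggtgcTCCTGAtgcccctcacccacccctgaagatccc
OAZ2: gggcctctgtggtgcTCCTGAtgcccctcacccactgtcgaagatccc
AMD1: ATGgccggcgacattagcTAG

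The stretches of OAZ1 and OAZ2 were identical at 43 of 48 bases. Without the shift, the first frame ends after 68 codons in OAZ1 and after 32 in OAZ2. With the base skipped, the annotated frames run to 228 and 189 codons. The AMD1 element has 6 codons before its stop codon and begins at base 12 of a leader of 321 bases.

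Upstream sequences were available for 7 of the 10 genes from RefSeq (GRCh38.p14) and were searched on both strands for CACGTG, the core bound by MYC and related factors, for TGATGNAA, the core of the element bound by ATF4 with C/EBP proteins, for TGACNNNGC, the core of the antioxidant response element, and for CCAAT. They are shown for SAT1, which had the largest fold change, and for both genes with a CACGTG match. AZIN1, SMOX and PAOX had no entry. The capitals below mark CACGTG and CCAAT on either strand. The SAT1 stretch covers the 250 bases before the start site at chrX:23782923-23783172, plus strand, and the SRM stretch those at chr1:11060019-11060268, minus strand. For ODC1 a stretch of 56 bases before an internal start site is given, at chr2:10448013-10448068 on the minus strand, within an intron of the main transcript.
SAT1: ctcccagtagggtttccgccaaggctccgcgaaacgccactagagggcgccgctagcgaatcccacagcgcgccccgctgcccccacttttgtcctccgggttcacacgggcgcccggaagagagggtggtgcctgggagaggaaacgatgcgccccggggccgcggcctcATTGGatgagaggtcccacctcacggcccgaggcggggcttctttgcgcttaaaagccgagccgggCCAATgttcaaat
SRM: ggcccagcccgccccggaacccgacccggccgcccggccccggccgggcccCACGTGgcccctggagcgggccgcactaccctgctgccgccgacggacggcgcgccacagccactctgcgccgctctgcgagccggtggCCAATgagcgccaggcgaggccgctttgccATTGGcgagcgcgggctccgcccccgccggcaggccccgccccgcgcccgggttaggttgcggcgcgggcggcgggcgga
ODC1: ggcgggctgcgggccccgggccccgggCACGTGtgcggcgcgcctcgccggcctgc

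CACGTG was found 199 bases before the SRM start and 29 bases before the internal ODC1 start, and 6.35% of the 35114 windows of 250 bases in the table hold it. The other ODC1 window, before the start site at chr2:10448327, held no CACGTG. No window of the 7 genes held TGATGNAA or TGACNNNGC, which are found in 3.14% and 10.9% of all windows. CCAAT occurred 2 times, counting both strands, in each of the SAT1, SRM and OAZ1 windows and 1 time in the SMS window and in 1 AMD1 window. It was thus found in 5 of the 10 windows of these genes, and 32.0% of all windows hold it. The 10 windows are not independent. AMD1 and ODC1 have more than 1 window, and AMD1 windows that begin at 110874534 and 110874535 nearly coincide. The GC content of the 10 windows ran from 66.4% to 82.4% and was not compared with that of all windows. A match describes these letters only, and with so few windows nothing is read from the absence of one.

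With DMSO, OAZ1 was the most abundant of the 10 genes at 594.2 ± 138.0 TPM (SD, n = 4), followed by SMS at 390.9 ± 29.3 and SRM at 283.6 ± 14.4. OAZ1 and SMS stood in this order in all 4 libraries, although their ranges overlapped between libraries. ODC1 (68.3 ± 5.50 TPM), SAT1 (61.2 ± 5.55) and AMD1 (52.3 ± 11.1) came next and their ranges overlapped. ODC1 exceeded SAT1 in all 4 libraries, SAT1 exceeded AMD1 in 3, and AMD1 exceeded SMOX (43.8 ± 8.74 TPM) in 2. OAZ2 (32.8 ± 6.75), AZIN1 (25.6 ± 5.52) and PAOX (20.2 ± 5.82) closed the order, and SMOX, OAZ2, AZIN1 and PAOX followed each other in this way in all 4 DMSO libraries. Of the 9 neighbouring pairs, only SMS with SRM and SRM with ODC1 did not overlap in TPM between libraries. Without DMSO replicate 4 this number was 6. With EB, SAT1 moved to place 4, above ODC1 in all 4 libraries. SMOX and AMD1 changed places in the means only, since SMOX exceeded AMD1 in 2 of the 4 EB libraries and their ranges overlapped.

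**Figure D1:**
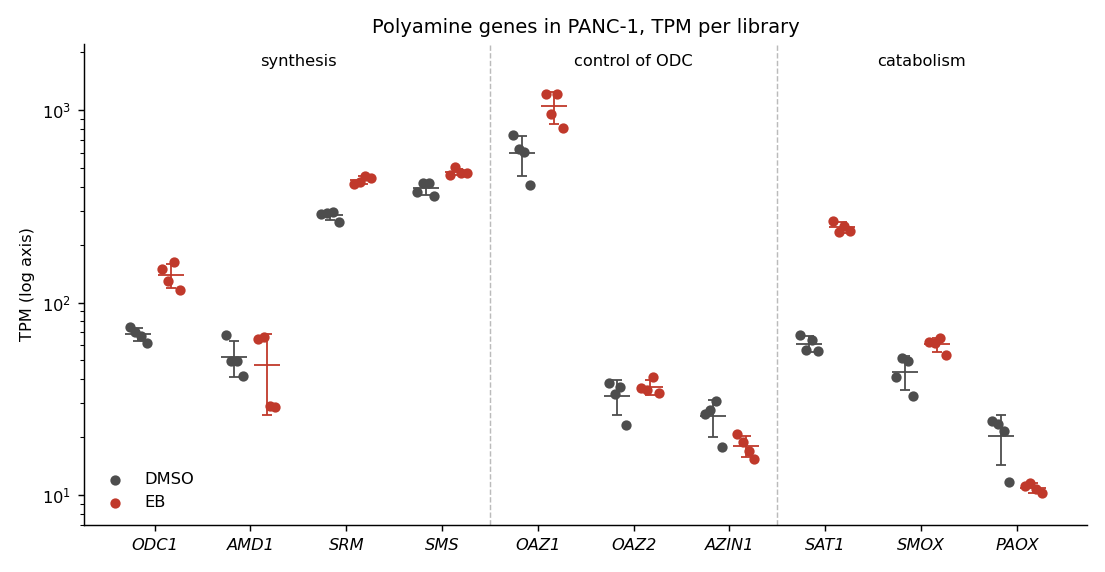
TPM (log axis) of the 10 polyamine genes in each library, DMSO in grey and EB in red, with the mean and SD (n = 4) as a horizontal mark and bar. The 4 EB values of SAT1 lie between 232.3 and 266.3 and its DMSO values between 56.3 and 67.7, while the EB values of AMD1 form an upper and a lower pair.

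SAT1 (ENSG00000130066, chromosome X of hg38, 23783173 to 23786210, plus strand) encodes the acetyltransferase that marks spermidine and spermine for export or oxidation. Its TPM was 67.7, 56.9, 63.9 and 56.3 in DMSO replicates 1 to 4 and 266.3, 232.3, 250.3 and 234.3 in EB replicates 1 to 4. Every EB library lay far above every DMSO library. The ratio of the means was 4.02 and the log2 fold change 1.99 (standard error 0.12). It ranged from 1.70 to 2.12 over 17 alternatives of processing, and from 1.95 to 2.04 with single libraries left out.

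SMOX (ENSG00000088826, chromosome 20, 4120980 to 4187747, plus strand) encodes spermine oxidase, which turns spermine back into spermidine and releases hydrogen peroxide. It had 41.1, 51.5, 49.9 and 32.6 TPM with DMSO and 62.1, 61.9, 65.2 and 53.3 with EB. The groups did not overlap, but the lowest EB and the highest DMSO library were close. The log2 fold change was 0.48 (standard error 0.16), and 0.30 with the mitochondrial genes removed.

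PAOX (ENSG00000148832, chromosome 10, 133379261 to 133391694, plus strand) encodes the peroxisomal oxidase that acts on the acetylated products of SAT1. Its TPM was 24.2, 23.5, 21.5 and 11.7 with DMSO and 11.2, 11.6, 10.7 and 10.2 with EB. DMSO replicate 4 lay just above the EB libraries and far below the other DMSO libraries. The log2 fold change was −0.78 (standard error 0.21), and −1.01 without that library. The catabolic genes thus differed in direction, SAT1 and SMOX higher and PAOX lower with EB.

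ODC1 (ENSG00000115758, chromosome 2, 10439968 to 10448327, minus strand), the gene of the first enzyme of synthesis, had 74.6, 70.2, 66.9 and 61.6 TPM with DMSO and 149.2, 129.6, 161.7 and 116.3 with EB. The groups were well apart. The ratio of the means was 2.04 and the log2 fold change 1.01 (standard error 0.14), with a range of 0.83 to 1.14 over the alternatives.

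SRM (ENSG00000116649, chromosome 1, 11054584 to 11060020, minus strand) encodes spermidine synthase. It had 287.2, 290.6, 294.1 and 262.4 TPM with DMSO and 410.0, 421.2, 451.8 and 445.0 with EB, without overlap. The log2 fold change was 0.61 (standard error 0.11) and fell to 0.35 when the dependence on transcript length and GC was removed.

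SMS (ENSG00000102172, chromosome X, 21940709 to 21994837, plus strand) encodes spermine synthase. Its TPM was 373.9, 415.0, 416.3 and 358.2 with DMSO and 460.2, 505.6, 470.7 and 469.5 with EB. All EB values were above all DMSO values, but the log2 fold change was only 0.29 (standard error 0.11), between 0.06 with quantile normalization and 0.42 with median-ratio scaling.

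AMD1 (ENSG00000123505, chromosome 6, 110874770 to 110898879, plus strand) encodes S-adenosylmethionine decarboxylase, the source of the aminopropyl groups. It had 68.0, 49.9, 49.8 and 41.6 TPM with DMSO and 64.9, 66.5, 28.9 and 28.8 with EB. EB replicates 1 and 2 lay within the upper part of the DMSO range and EB replicates 3 and 4 below all DMSO libraries, so that the SD of the EB group was 45.0% of its mean. The log2 fold change was −0.24 (standard error 0.30). Unlike AMD1, the synthesis genes ODC1, SRM and SMS had EB values above every DMSO value, as had 16.6% of all genes tested. Nothing is read from this count.

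OAZ1 (ENSG00000104904, chromosome 19, 2269509 to 2273490, plus strand), the major antizyme, had 741.6, 624.0, 602.1 and 409.1 TPM with DMSO and 1207.1, 949.0, 1207.7 and 809.8 with EB. The groups did not overlap although the SD was 23.2% of the mean with DMSO and 19.0% with EB. The log2 fold change was 0.82 (standard error 0.21), and 0.53 with quantile normalization or with the length and GC trend removed.

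OAZ2 (ENSG00000180304, chromosome 15, 64687573 to 64703281, minus strand), the second antizyme, had 38.1, 33.6, 36.5 and 23.1 TPM with DMSO and 36.1, 35.0, 41.2 and 33.8 with EB. The groups overlapped, with a log2 fold change of 0.17 (standard error 0.17) that came to −0.01 when the mitochondrial genes were removed and the TPM rescaled.

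AZIN1 (ENSG00000155096), the antizyme inhibitor, is a relative of ornithine decarboxylase without its activity. Its TPM was 26.3, 27.5, 30.7 and 17.8 with DMSO and 20.8, 18.8, 16.9 and 15.4 with EB. DMSO replicate 4 lay among the EB libraries, and the other DMSO libraries above them. The log2 fold change was −0.47 (standard error 0.18), between −0.65 with the mitochondrial genes removed and −0.20 with the length and GC trend removed, and −0.63 without DMSO replicate 4.

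The fitted model gave 6 of the 10 genes a limma adjusted p under 0.05, namely ODC1, SRM, OAZ1, SAT1 and SMOX as higher and PAOX as lower with EB. Over all genes tested, 40.3% passed this threshold, 15.2% as higher and 25.1% as lower with EB. For 6 polyamine genes all EB values lay above all DMSO values and for 1 all lay below, against 16.6% and 20.3% of all genes, or 36.8% together. Since the genes were put forward with this contrast known, nothing is read from these counts. The median log2 fold change was 0.38 over the 10 genes and −0.11 over all genes tested. Without DMSO replicate 4, 7 of the 10 passed, AZIN1 being added, against 52.5% of all genes. SMOX did not pass without DMSO replicate 1 or without EB replicate 1, 2 or 3.

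**Figure D2:**
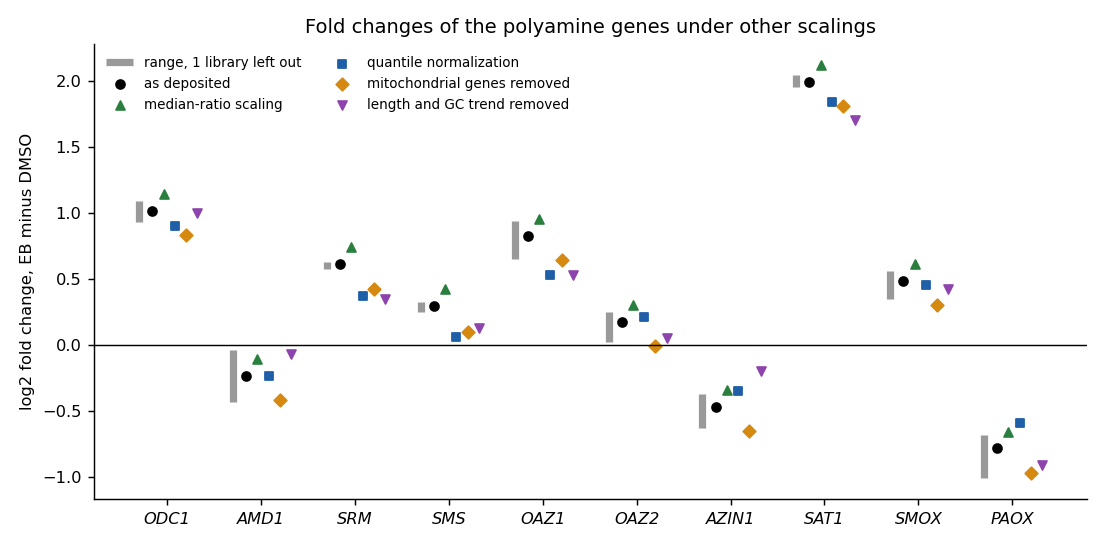
Log2 fold change (EB minus DMSO) of the 10 polyamine genes as deposited and under 4 other scalings, with the range over the fits that leave out 1 library as a grey bar. SAT1 stays between 1.70 and 2.12, whereas OAZ2 reaches −0.01 and SMS 0.06.

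Across the table, fold changes depended on transcript length. In 10 length classes of nearly equal size, the median was 0.41 for the shortest transcripts, 276 to 1225 nucleotides, and −0.54 for the longest, 7317 nucleotides and more. SAT1 (1049 nucleotides) and OAZ1 (1148) belong to the shortest class, SRM (1260) and SMS (1703) to the next with a median of 0.24, and AZIN1 (4196) to class 7 with a median of −0.28. After removal of the dependence on length and GC, the log2 fold change was 1.70 for SAT1, 1.0 for ODC1, 0.53 for OAZ1, 0.42 for SMOX, 0.35 for SRM, 0.13 for SMS, 0.05 for OAZ2, −0.07 for AMD1, −0.20 for AZIN1 and −0.91 for PAOX. ODC1 had been at 1.01 and PAOX at −0.78, so neither moved toward 0 by more than 0.01, whereas SRM, SMS, OAZ1, AZIN1 and SAT1 all moved toward 0. The removal also gave all libraries the same mean log2 value, and the median log2 fold change of all genes went from −0.11 to 0.02. These shifts therefore do not measure the part of length and GC alone.

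Ratios between genes of one library do not change when all values of a library are multiplied by a common factor. They can change with quantile normalization or removal of the length and GC trend, which act unequally on genes. The ratio of SAT1 to ODC1, the first enzyme of catabolism to that of synthesis, was 0.907, 0.810, 0.956 and 0.914 with DMSO and 1.79, 1.79, 1.55 and 2.02 with EB, without overlap. The level of SAT1 mRNA was thus below that of ODC1 in every DMSO library and above it in every EB library. The ratio of OAZ1 to AZIN1, the antizyme to its inhibitor, was 28.2, 22.7, 19.6 and 23.0 with DMSO and 58.1, 50.4, 71.5 and 52.4 with EB, again without overlap. These ratios join genes of unlike length (OAZ1 1148 and AZIN1 4196 nucleotides). With the length and GC trend removed, the log2 fold change of OAZ1 was 0.53 instead of 0.82 and that of AZIN1 −0.20 instead of −0.47. That of SAT1 was 1.70 instead of 1.99 and that of ODC1 1.0 instead of 1.01. The part of length in the ratios was not tested.

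The ratio of OAZ1 to ODC1 was 9.94, 8.89, 9.0 and 6.64 with DMSO and 8.09, 7.32, 7.47 and 6.97 with EB, so that its groups overlapped. The means were 8.62 ± 1.40 with DMSO and 7.46 ± 0.470 with EB (SD, n = 4). OAZ1 to OAZ2 went from 18.1 ± 1.26 to 28.5 ± 3.97, and SMOX to PAOX from 2.25 ± 0.449 to 5.55 ± 0.393, both without overlap. SMS to SRM was 1.38 ± 0.0573 with DMSO and 1.10 ± 0.0728 with EB, and all EB values were lower. The 6 ratios use the same contrast as the single genes, were taken from the deposited TPM without removal of the length trend, and were not tested.

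**Figure D3:**
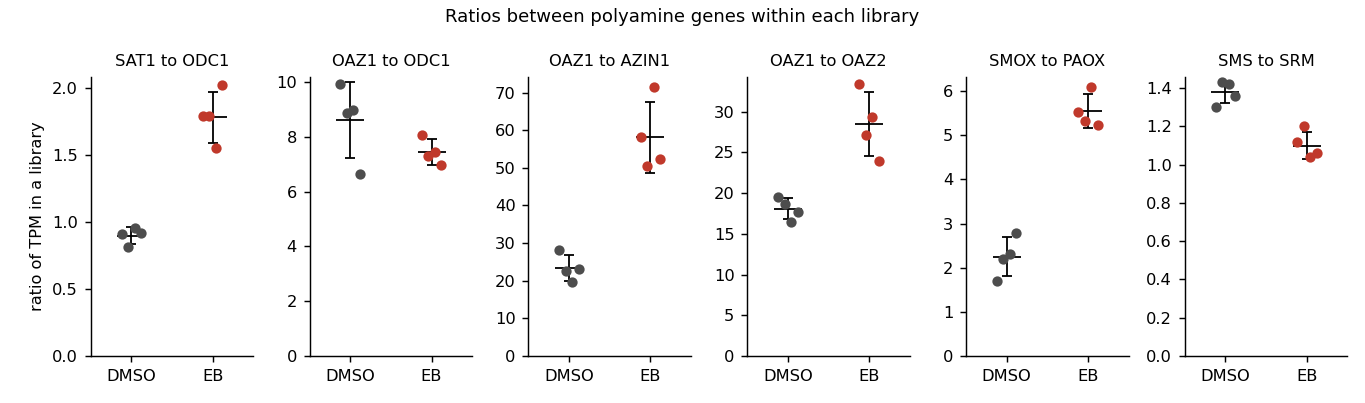
Ratio of the TPM of 2 polyamine genes in each library, with points for the 4 libraries of a group and the mean and SD in black. The SAT1 to ODC1 ratio lies below 1 in all DMSO libraries and above 1 in all EB libraries, while the OAZ1 to ODC1 ratio overlaps between the groups.

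By Pearson's r of log2(TPM + 1) over the 8 libraries, the genes with the pattern most like SAT1 were CTSL (r = 0.998), which encodes cathepsin L, CTH (0.997), the cystathionine gamma-lyase of cysteine synthesis, TM4SF1 (0.997), BATF3 (0.996) and CENPQ (0.995). The libraries fall into the DMSO and the EB group, and r is a measure of likeness only. By the deviations from the group means, the nearest genes were UQCC2 (0.984), PIN4 (0.977), APOC1 (0.974), GFOD2 (0.967) and MAPK14 (0.956), none of which was among the genes named before. Both lists hold the highest r of 11724 genes over only 8 libraries, a choice that alone can give high values, and r was not tested.

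A further 48 genes of polyamine metabolism were listed by function, as paralogs of the 10 genes, for the supply of ornithine and arginine, for SAM supply and the salvage of methylthioadenosine, for hypusine formation, for transport and for terminal oxidation. Of these, 31 were abundant enough to be tested and 7 were listed at 0 in every library. With a limma adjusted p under 0.05 over all genes, 5 rose and 6 fell, that is 35.5% of those tested against 40.3% of all genes. The 5 include SLC3A2, whose higher level was known when the list was written, and without it 10 of 30 passed, or 33.3%. For these 30 genes, all EB values were higher in 3 and lower in 4, or 23.3% together, against 16.6%, 20.3% and 36.8% of all genes. The median log2 fold change was −0.10, next to −0.11 over all genes tested. The number that passed fell to 6 without DMSO replicate 3 and to 7 without EB replicate 3, and was 13 without DMSO replicate 4, SLC3A2 included. The share over all genes was 29.7%, 28.8% and 52.5% in these fits.

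**Figure D4:**
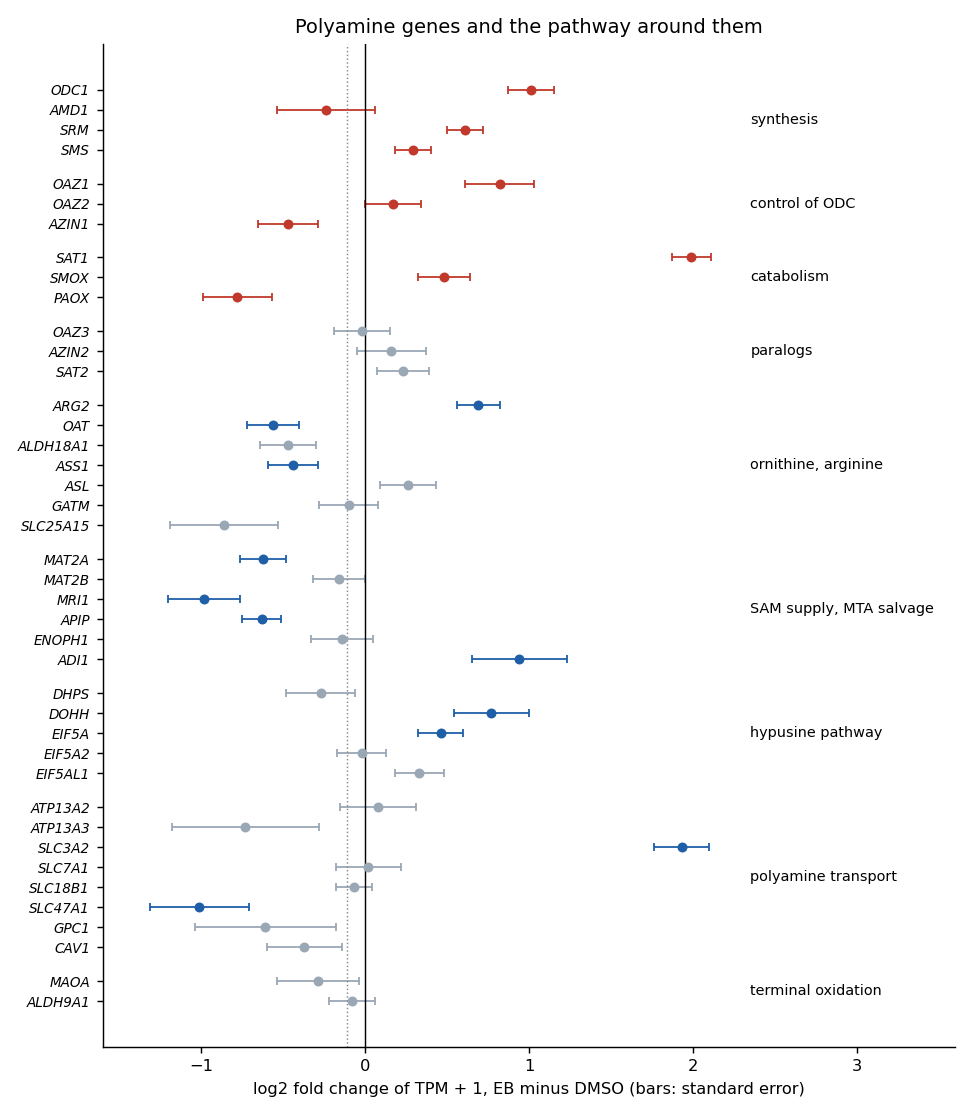
Log2 fold change (EB minus DMSO) with its standard error for the 10 polyamine genes (red) and the 31 other pathway genes tested, in blue where the limma adjusted p was under 0.05 and in grey otherwise. The dotted line is the median of all genes tested at −0.11, and SAT1 and SLC3A2 lie farthest to the right.

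SAM supply and methylthioadenosine salvage had 3 genes that fell and 1 that rose among 6 tested. Over all genes tested, 25.1% passed as lower and 15.2% as higher. With so few genes, nothing is read from the counts of single lists. Methylthioadenosine is the by-product of spermidine and spermine synthesis, and its salvage returns the sulfur to methionine. MAT2A, which encodes the catalytic subunit of the main SAM synthetase outside the liver, had 336.3, 339.8, 342.0 and 256.8 TPM with DMSO and 219.3, 232.0, 187.2 and 189.8 with EB. All EB values were lower, and the log2 fold change was −0.62 (standard error 0.14, adjusted p = 0.00792 by limma).

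MRI1, the isomerase of the salvage route, fell from 51.2, 52.5, 52.4 and 27.4 TPM to 26.5, 23.8, 20.7 and 17.6 (log2 fold change −0.98, standard error 0.22, limma adjusted p = 0.00761). DMSO replicate 4 lay close to the EB libraries. APIP, the dehydratase of the next step, fell from 88.7, 73.3, 77.6 and 74.3 TPM to 47.8, 54.1, 53.5 and 45.8 (log2 fold change −0.63, limma adjusted p = 0.00349).

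ADI1, the dioxygenase near the end of the route, rose by 0.94 on the log2 scale (standard error 0.29, adjusted p = 0.0269 by limma), but the groups overlapped. Its TPM was 80.4, 69.2, 62.6 and 42.3 with DMSO and 169.6, 162.6, 99.5 and 74.4 with EB, and EB replicates 1 and 2 were again the higher pair, as in AMD1. MAT2B and ENOPH1 did not pass, with log2 fold changes of −0.16 and −0.14. MTAP, the phosphorylase that opens the salvage, was listed at 0 in all 8 libraries.

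For ornithine and arginine, 1 gene rose and 2 fell among 7 tested, beside 15.2% and 25.1% of all genes tested. ARG2, the mitochondrial arginase that forms ornithine, rose from 2.93, 2.72, 2.65 and 3.58 TPM to 5.68, 5.65, 5.89 and 4.4 (log2 fold change 0.69, standard error 0.13, limma adjusted p = 0.0035). OAT, the aminotransferase that links ornithine with proline and glutamate, fell from 162.5, 142.2, 142.2 and 109.7 TPM to 108.1, 95.6, 94.3 and 78.3 (log2 fold change −0.56, limma adjusted p = 0.0187). In both genes the groups did not overlap. ASS1, of arginine synthesis, fell by 0.44 on the log2 scale (limma adjusted p = 0.0384) with overlapping groups. The mitochondrial ornithine carrier SLC25A15 had a log2 fold change of −0.86 (limma adjusted p = 0.0573) and ALDH18A1 one of −0.47 (limma adjusted p = 0.0539), and neither passed.

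Spermidine gives its aminobutyl group to the translation factor eIF5A, which becomes hypusinated. Of the 5 genes of this branch, 2 rose and the others did not pass, beside 15.2% of all genes tested that passed as higher. EIF5A itself had 617.1, 582.1, 622.3 and 429.4 TPM with DMSO and 787.5, 777.1, 797.6 and 708.5 with EB (log2 fold change 0.46, standard error 0.14, limma adjusted p = 0.0294). DOHH, the hydroxylase of the second step, had 25.5, 26.3, 20.9 and 12.1 TPM with DMSO and 41.8, 32.1, 39.3 and 29.5 with EB (log2 fold change 0.77, limma adjusted p = 0.0267). In both genes all EB values were above all DMSO values. DHPS, the enzyme of the first step, had a log2 fold change of −0.27 and did not pass. EIF5AL1 is a near-identical copy of EIF5A, so how reads were divided between them is uncertain.

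Among 8 tested transport genes, SLC3A2 was higher and SLC47A1 fell, beside 15.2% and 25.1% of all genes tested. SLC3A2, the heavy chain of several amino acid exchangers that has also been linked to putrescine export, had 55.2, 50.3, 55.1 and 35.4 TPM with DMSO and 219.1, 173.2, 197.3 and 163.8 with EB without overlap (log2 fold change 1.93, standard error 0.17). Since this was known beforehand, it is given as a description. SLC47A1, an exporter of organic cations, had 17.9, 12.5, 14.7 and 7.42 TPM with DMSO and 9.87, 5.95, 4.44 and 3.91 with EB, with overlap between the groups (log2 fold change −1.01, limma adjusted p = 0.0219). The lysosomal polyamine exporter ATP13A2 (log2 fold change 0.08) and the arginine importer SLC7A1 (0.02) did not pass. ATP13A3 had 3.67 TPM in EB replicate 1 and 15.8 to 22.6 in the other EB libraries.

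The 3 tested paralogs had log2 fold changes of −0.02 for the antizyme OAZ3, 0.16 for the inhibitor AZIN2 and 0.23 for SAT2, with limma adjusted p of 0.933, 0.584 and 0.252. SAT2, a relative of SAT1, had 29.2 to 39.6 TPM with DMSO and 33.9 to 47.3 with EB, with overlap. The difference between the fold changes of SAT1 and SAT2 was not tested. Of the genes for terminal oxidation, MAOA and ALDH9A1 were tested, with log2 fold changes of −0.29 and −0.08 and limma adjusted p of 0.386 and 0.663, and the diamine oxidase gene AOC1 was listed at 0 in all 8 libraries.

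Leaving SLC3A2 aside, 10 genes passed, and of these MAT2A, MRI1 and APIP did so with every single library left out and under every other alternative, and ARG2 under each in which it was tested. OAT did not pass without DMSO replicate 1, 2 or 3 or EB replicate 4, and ASS1 without any library other than DMSO replicate 4 and EB replicate 2. ADI1 did not pass without DMSO replicate 3 or 4 or EB replicate 1 or 2, DOHH without DMSO replicate 3 or EB replicate 1 or 3, EIF5A without DMSO replicate 2 or EB replicate 1, 2 or 3, and SLC47A1 without DMSO replicate 1 or 3 or EB replicate 3 or 4. ADI1, DOHH and SLC47A1 also did not pass when no genes were filtered out, and EIF5A with quantile normalization, where its log2 fold change was 0.16. The highest adjusted p of these genes over all alternatives was 0.0524 for OAT, 0.113 for ASS1, 0.0722 for ADI1, 0.0712 for DOHH, 0.143 for EIF5A and 0.0635 for SLC47A1 (limma with Benjamini-Hochberg adjustment).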

How the data were processed

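The 8 mRNA libraries came from PANC-1 cells after 24 h in EB (10 μM) or DMSO. The labels give 4 per group, as do the study's methods, which call them biological replicates, though the same methods also mention triplicates. The authors deposited TPM per gene and library. Their methods name CLC Genomics Workbench for trimming, mapping and normalization, list Trimmomatic, Bowtie2, HISAT2 and StringTie among additional tools, and name both GrCM38 and hg38 as the genome. The identifiers are human. Columns headed C were read as DMSO and columns headed H as EB, the only other group. Of 20263 identifiers, 20148 matched GENCODE release 44, the source of positions and transcript lengths.

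The deposited TPM were log2-transformed after adding 1, so fold changes of low genes are understated. Limma 3.58.1 in R 4.3.3 (lmFit, eBayes, no trend, no block) was fitted to all 11725 genes that reached 1 TPM in 4 or more libraries, with Benjamini-Hochberg adjustment over all of them and a threshold of 0.05. The fit was tested on simulated data. Without counts, depth and counting error are unknown.

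The polyamine genes and the lists were chosen with earlier results of these data known. Named are the 10 genes, of each other list the genes that passed (at most 6) and others given as values, and the 5 genes most like SAT1 by each measure. Genes singled out for a value without passing, such as ATP13A3, were chosen after their values were seen. Each of these changes was tried alone: adding 0.1 instead of 1, testing all genes or those that reached 5 TPM, median-ratio or quantile scaling, removal of the mitochondrial genes, an intensity trend, a replicate block, leaving out each library, and regressing out transcript length and GC (splines with 4 degrees of freedom). The regression on length and GC also gave all libraries the same mean log2 value. Python 3.11.15, pandas 2.3.3, numpy 2.4.6 and matplotlib 3.10.9 were used for tables and plots.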

Additional observations from a re-analysis of the deposited data

Results flagged for a closer look

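In each group of 4 libraries, a library was marked when its gap to the nearest of the others, as a share of the group's range, exceeded Dixon's critical value, which chance alone gives in about 1 of 20 groups. Of 56 groups examined, 3 were marked. ARG2 had 4.4 TPM in EB replicate 4 against 5.65 to 5.89 in the other EB libraries. MRI1 had 27.4 TPM in DMSO replicate 4 against 51.2 to 52.5 in the other DMSO libraries. MAT2A had 256.8 TPM in the same library against 336.3 to 342.0. DMSO replicate 4 is also the library with the highest mitochondrial share, 39.0% of its TPM, and the part of that share in these values was not tested.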

How the results depend on the processing

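The direction of ODC1, SRM, SMS, OAZ1, SAT1, SMOX, AMD1, AZIN1 and PAOX held under all 17 alternatives, and OAZ2 came to −0.01 with the mitochondrial genes removed. Single libraries left out gave 5 to 7 called polyamine genes, 6 to 13 other pathway genes, and 3382 to 6159 of all genes. The share of higher genes among all calls was 37.7% as deposited, 51.2% with median-ratio scaling, 50.3% with quantile normalization, 52.8% with the length and GC trend removed and 22.7% with the mitochondrial genes removed, and the median log2 fold change of all genes was 0.01, 0.02, 0.02 and −0.28 in these. Of the other pathway genes, these scalings called 8 higher and 8 lower, 6 and 7, 8 and 8, and 5 and 10. These calls were 51.6%, 41.9%, 51.6% and 48.4% of the pathway genes tested. Of all genes, the same fits called 52.4%, 47.3%, 46.2% and 53.5%. With DMSO, the number of the 9 neighbouring pairs of polyamine genes whose TPM did not overlap was 2 as deposited, 6 with median-ratio scaling, 6 with quantile normalization and 4 with the mitochondrial genes removed, and 2 to 6 with single libraries left out, while the order of the 10 means was the same in each. The replicate block called 7 polyamine genes, 13 other pathway genes and 5756 genes in all, against 6, 11 and 4729 without it. The numbers pair no samples by the labels, and deviations of same-numbered libraries from their group means correlated at r = 0.183, 0.0463, −0.0879 and 0.284, with EB replicates 2 and 3 closer to another DMSO number than to their own. The cause of these differences was not tested.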

Other observations

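MTAP, which opens the salvage of the by-product of spermidine and spermine synthesis, is located at 21802636 to 21937651 on chromosome 9 (hg38). Its value of 0 in all libraries led to a look at its surroundings, chosen after the values were seen. Of 24 genes of the table within 1 Mb of MTAP, itself included, 21 were listed at 0 in all 8 libraries, among them CDKN2A and CDKN2B next to it. The highest TPM of the remaining genes was 0.0908 for FOCAD, 0.0451 for KLHL9 and 0.0407 for DMRTA1. Most of the 24 are interferon genes, which are mostly silent without a stimulus. HACD4, which is not one of them, was also at 0 in all 8 libraries. The cause of these values was not tested. The salvage genes downstream of MTAP were all present, with APIP at 78.4 ± 7.07 TPM and MRI1 at 45.9 ± 12.3 TPM with DMSO (SD, n = 4).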
